A study of Homo sapiens with 6 samples.

Results

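A pair of siRNAs against the same transcript, HMOX1si1 and HMOX1si2, were compared with each other in AsPC-1, an established human pancreatic ductal adenocarcinoma cell line grown from ascites. The comparison uses the 2 HMOX1si2 and the 2 HMOX1si1 libraries, 4 of the 6 libraries of the study, and covers the 13769 of 20263 genes that passed an expression filter. The remaining 2 libraries, siControl, came from cells given a negative control siRNA. Their values stand beside the results as background, and they also enter the fit, which takes its spread from all 6 libraries (154 genes were called in place of the 499 given below when only the 4 siRNA libraries were fitted). All cells were of the same line, the labels name no engineered allele, and all were transfected with jetPRIME, the controls included. The sources used here give neither the siRNA sequences and doses nor the time from transfection to RNA extraction. Whether the replicates of a group were separate cultures is not stated in the labels, and the p-values then rest on a spread between libraries that could be technical.

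The shared target, heme oxygenase-1, is a stress-inducible enzyme that cleaves heme into biliverdin, carbon monoxide and free iron. An siRNA guides Argonaute proteins to a fully matched transcript, which is then cut. The guide can also lower other transcripts through short matches between its seed (bases 2 to 8) and their 3′ untranslated regions (3′ UTRs), so siRNAs of different sequence against 1 target are commonly run side by side. In pancreatic ductal cancer, keratins, laminin-332 and mucins mark the epithelial state of the cells.

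The library totals lay between 36.1 and 45.1 M counts, and 14999 to 15220 genes had a count above 0 in each. The replicates differed beyond counting error in each group: chi-square divided by its degrees of freedom came to 34.7 in siControl, 44 in HMOX1si1 and 76.6 in HMOX1si2. Of the 13769 genes tested, low counts included, between 167 and 215 differed by over 4-fold between the replicates of a group. Of the 10838 genes at or above 2 in mean log2 CPM, between 165 and 176 differed by over 2-fold. CPM is a gene's count relative to the size of its library, here after TMM scaling. All 12 markers of ductal carcinoma epithelium were detected in every library. Markers of other cells were low or at 0: the summed level was at most 0.586 CPM for acinar markers, at most 0.1 for endocrine markers and at most 1.71 for endothelial markers, and CPA1, AMY2A, PNLIP, INS, SST, PPY, TEK, CD3E and HBB had no count in any library. Fibroblast markers summed to 79 to 125 CPM, nearly all of it from LUM, and blood cell markers to 132 to 208, most of it from CD68 and LYZ.

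The targeted transcript was lower with HMOX1si2 than with HMOX1si1. HMOX1 (ENSG00000100292, chromosome 22, plus strand) had 102 and 112 counts in the HMOX1si1 libraries and 55 and 53 in the HMOX1si2 libraries, against 328 and 378 in siControl. As levels, these are 2.43 and 2.8 CPM with HMOX1si1, 1.27 and 1.17 with HMOX1si2, and 9.06 and 8.52 with siControl. The 3 groups did not overlap, and HMOX1si2 left the least transcript in both of its libraries. The HMOX1si2 level was 46.7% of the HMOX1si1 level (95% interval 35.1 to 62), a log2 difference of −1.10 (SE 0.17, edgeR adjusted p = 0.0284). Against siControl, the fitted log2 differences were −1.75 for HMOX1si1 and −2.85 for HMOX1si2. The call was lost when any 1 of the 6 libraries was left out (edgeR adjusted p between 0.0795 and 0.144), while the log2 difference kept its sign, between −1.2 and −0.99.

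**Figure D1:**
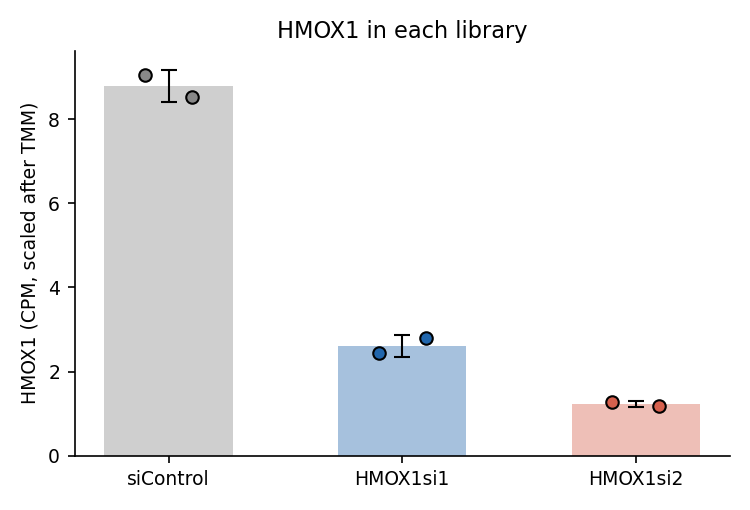
HMOX1 level in CPM in each of the 6 libraries (points), with bars for the group means and error bars for the SD, n = 2 per group. The HMOX1si2 libraries sit at 1.27 and 1.17 CPM, below the HMOX1si1 libraries at 2.43 and 2.8 and the siControl libraries at 9.06 and 8.52.

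Over all genes, the siRNAs differed in 499 transcripts (3.62% of those tested), of which 294 were higher with HMOX1si2 (2.14%) and 205 lower (1.49%), at an adjusted p under 0.05 (edgeR quasi-likelihood test, Benjamini-Hochberg method). A called gene differed by a median of 0.90 on the log2 scale (middle range 0.70 to 1.16), with a median SE of 0.12. At least 2-fold differences were called in 183 genes, 124 higher and 59 lower. Among the called genes HMOX1 was not near the top: it ranked 272 by p and 141 by the size of its difference. In all 499 called genes the libraries of the siRNAs did not overlap, which also held in 7055 of the 13769 genes tested (51.2%). Of the called genes, 111 share exon sequence with another gene of the table, and their counts may be divided between both. DESeq2 called 1411 genes (10.2%), 498 of the 499 among them, whereas the count fell to 28 without HMOX1si1 replicate 1, 26 without HMOX1si1 replicate 2, 133 without HMOX1si2 replicate 1, 186 without HMOX1si2 replicate 2 and 155 without either siControl library.

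**Figure D2:**
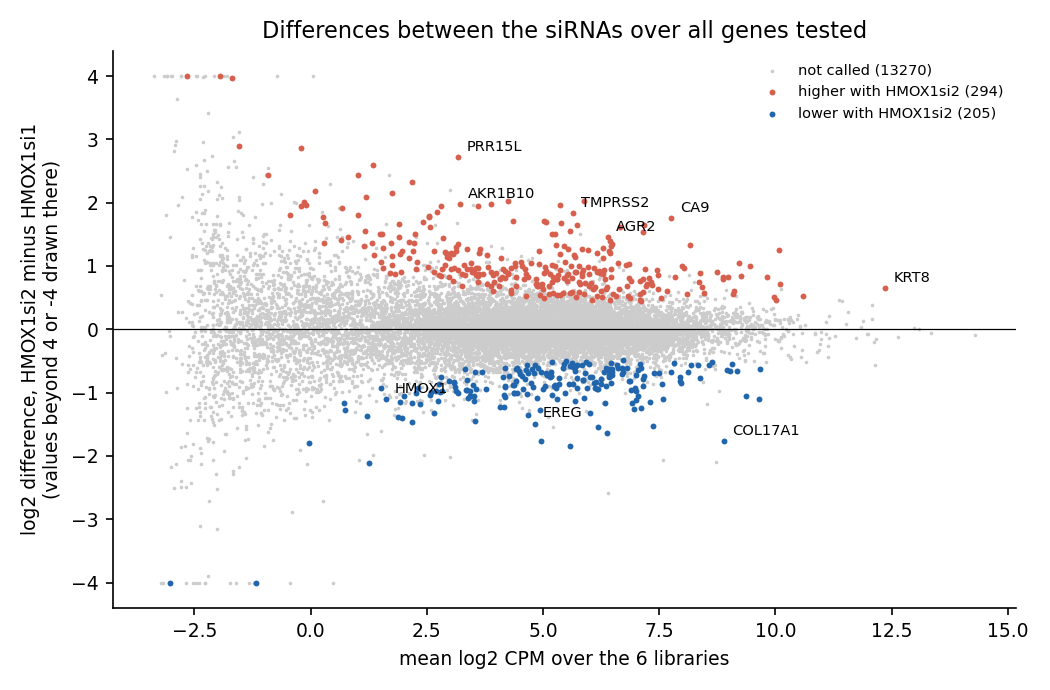
Each point is 1 of the 13769 genes tested, with its mean log2 CPM over the 6 libraries on the x axis and its log2 difference, HMOX1si2 minus HMOX1si1, on the y axis (values outside the axis are drawn at its ends). Red points are the 294 genes called higher with HMOX1si2 and blue points the 205 called lower; HMOX1 lies inside the cloud of called genes.

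The genes below were named by the size of their difference among called genes whose mean log2 CPM was 2 or more and whose replicates were within 2-fold. Called genes at lower levels reached larger differences, such as MYCN, with 2 and 2 counts with HMOX1si1, 22 and 50 with HMOX1si2 and 8 and 21 with siControl, too few to give a fold; it shares exons with MYCNOS. On the higher side PRR15L, a proline-rich protein gene with no well-described role, differed most within that rule. Its level was 2.67 and 3.23 CPM with HMOX1si1 and 18.7 and 20.2 with HMOX1si2, with siControl between them at 12.5 and 12.7 (6.61-fold, log2 difference 2.72, SE 0.15, edgeR adjusted p = 0.00581). TMPRSS2, a serine protease anchored in the cell membrane, was at 25.5 and 24.9 CPM with HMOX1si1, 87.7 and 92 with HMOX1si2 and 54.7 and 54.8 with siControl (log2 difference 1.83, SE 0.09, adjusted p = 0.00581). The libraries of both genes thus stood on opposite sides of the control, below it with HMOX1si1 and above it with HMOX1si2. Against siControl, the HMOX1si2 difference was called for TMPRSS2 (0.71, edgeR adjusted p = 0.0196) but not for PRR15L (0.63, edgeR adjusted p = 0.0558). TMEM151A, a transmembrane protein gene, had 22.8 and 25.5 CPM with HMOX1si1 against 105 and 90.8 with HMOX1si2 and 80.3 and 88.5 with siControl (log2 difference 2.02, SE 0.12, edgeR adjusted p = 0.00581). APLP1, a relative of the amyloid precursor protein whose exons overlap NPHS1, had 15.2 and 14 CPM with HMOX1si1, 45.4 and 50.1 with HMOX1si2 and 46.5 and 53 with siControl (1.71). In both, the HMOX1si2 libraries lay near siControl and the HMOX1si1 libraries far below. The reverse held for PLA2G15, the lysosomal phospholipase A2, with 7.49 and 8.55 CPM with HMOX1si1, 28.8 and 32.7 with HMOX1si2 and 7.3 and 6.6 with siControl (log2 difference 1.94, SE 0.14, edgeR adjusted p = 0.00678). CA9, carbonic anhydrase IX at the cell surface and a classic hypoxia target, was the most abundant of this set, at 115 and 103 CPM with HMOX1si1, 346 and 391 with HMOX1si2 and 239 and 276 with siControl (1.76); its exons overlap ARHGEF39.

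The other 9 genes named by size on this side differed by 1.78 to 2.32 on the log2 scale. They were DEGS2, a sphingolipid desaturase and hydroxylase gene whose exons overlap EVL (mean 1.67 CPM with HMOX1si1, SD 0.505, and 8.32 with HMOX1si2, SD 0.23), C2orf88 (8.83 and 36.2), the aldo-keto reductase gene AKR1B10 (3.97 and 15.7), DOK7, an activator of the muscle kinase MuSK (6.49 and 25.7), LGALS2, a galectin (15.1 and 58.9), KRT16, a stress keratin (2.56 and 9.82), the WNT ligand gene WNT11 (3.42 and 12.4), LDLRAD1 (3.01 and 10.4) and CYP24A1, the vitamin D 24-hydroxylase (3.31 and 11.4). In C2orf88 the HMOX1si2 libraries were far apart, at 47.7 and 24.7 CPM. In the siControl libraries, the mean levels were 22.5 CPM for C2orf88, 12.5 for AKR1B10, 18.9 for DOK7, 79.3 for LGALS2, 13.4 for KRT16, 6.48 for WNT11, 6.11 for LDLRAD1, 5.15 for CYP24A1 and 6.77 for DEGS2. LGALS2 and KRT16 therefore had their highest mean in siControl, and the other 7 in HMOX1si2. Of these 9 genes, only WNT11, LDLRAD1 and CYP24A1 were called for HMOX1si2 against siControl (edgeR adjusted p = 0.0467, 0.0494 and 0.0304).

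On the other side, COL17A1, the transmembrane collagen of hemidesmosomes, stood out by its level and its difference. It had 872 and 940.3 CPM with HMOX1si1, 272 and 258 with HMOX1si2 and 474 and 420.2 with siControl (3.42-fold lower with HMOX1si2, log2 difference −1.77, SE 0.11, edgeR adjusted p = 0.00581). EREG, which encodes the EGF receptor ligand epiregulin, had 50.6 and 51.8 CPM, 17.4 and 19.1 CPM, and 24.8 and 23.3 CPM in the same order (−1.49, SE 0.10, edgeR adjusted p = 0.00671). In COL17A1 and EREG the siControl libraries lay between the siRNAs. HMOX1si2 against siControl was called for COL17A1 (−0.75, edgeR adjusted p = 0.023) but not for EREG (−0.39, edgeR adjusted p = 0.0806). MAP2K3, a kinase that activates p38, was at 108 and 94.4 CPM with HMOX1si1, 32.3 and 37.1 with HMOX1si2 and 105 and 113 with siControl (−1.55, SE 0.12, adjusted p = 0.00761). PLBD2, a lysosomal phospholipase B-like protein, followed the same pattern with 118 and 139, 44.4 and 37.7, and 113 and 105 CPM (−1.64). For MAP2K3 and PLBD2 the HMOX1si1 libraries lay near siControl and the HMOX1si2 libraries far below.

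The remaining 10 genes named by size on this side differed by −1.24 to −1.85. TMEM120B (mean 65.9 CPM with HMOX1si1, 18.3 with HMOX1si2 and 93 with siControl; exons shared with RHOF), FAM98A (35.1, 13.6 and 34.9), DERA, the deoxyribose-phosphate aldolase (38.9, 16 and 46.1), TMEM245 (166, 69.6 and 163) and TNFRSF10B, the TRAIL death receptor DR5 (189, 80.4 and 175; exons shared with RHOBTB2), had siControl means nearer to HMOX1si1. DSC2, a desmosomal cadherin (103, 41 and 62.1), SLC37A2, a sugar phosphate transporter (9.98, 3.96 and 6.22), IGFN1 (7.81, 2.83 and 4.2), MRPL34, a mitochondrial ribosomal protein (20.1, 7.37 and 10.7; exons shared with ABHD8), and a gene listed only as ENSG00000258941 (65.4, 19.2 and 24.3) had siControl means nearer to HMOX1si2. The TMEM120B libraries of HMOX1si2 were at 13.1 and 23.5 CPM. Of the 30 genes named by size, 11 kept the call in each of 14 alternative fits, among them PRR15L, TMEM151A, PLA2G15, TMPRSS2, CA9 and APLP1 on the higher side, and COL17A1, PLBD2, MAP2K3 and EREG on the lower. The other 19 lost it in at least 1 fit, 16 of the 30 without HMOX1si1 replicate 1 and 16 without HMOX1si1 replicate 2.

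**Figure D3:**
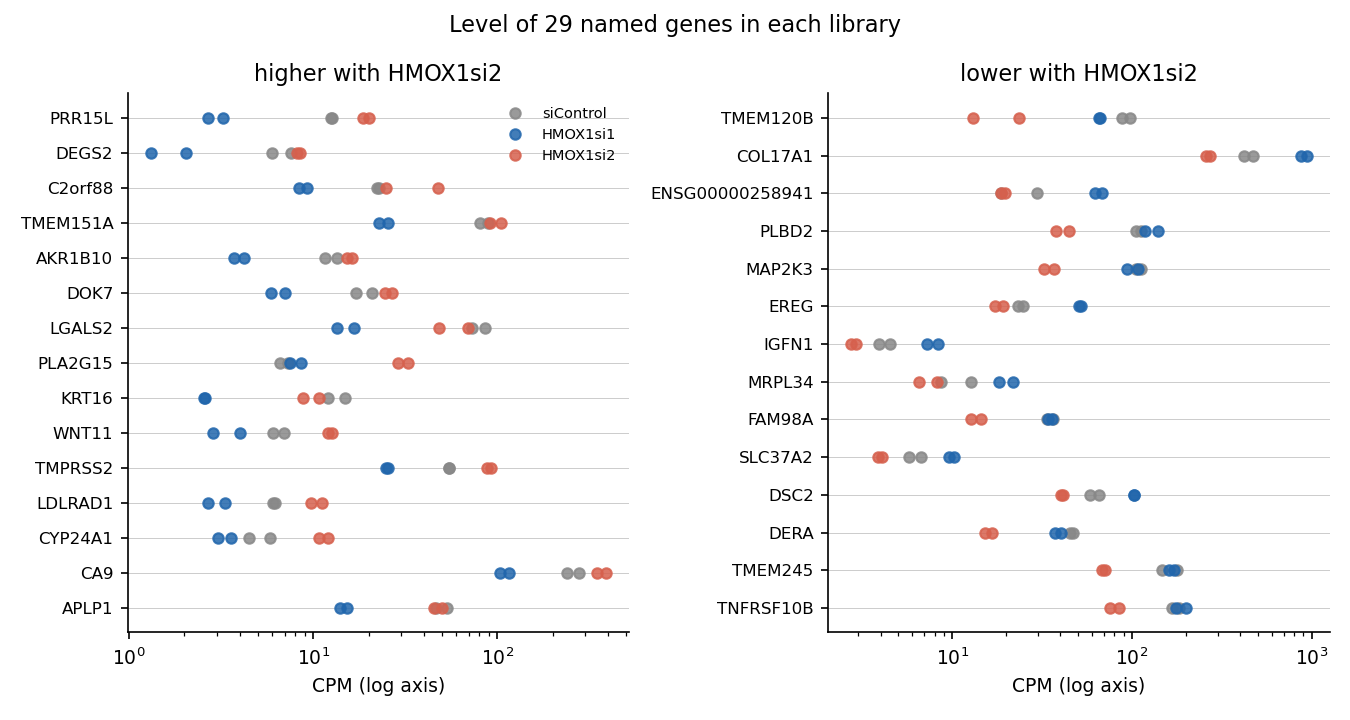
Level in CPM (log axis) of 29 of the genes named by size in the 6 libraries, 2 points per group. Genes higher with HMOX1si2 and genes lower with it are separated, and the siControl points fall near HMOX1si1 for some genes (PLA2G15, MAP2K3), near HMOX1si2 for others (APLP1) and between the siRNAs for COL17A1 and EREG.

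Only 15 genes were called in every fit that left out 1 library. They are the 11 above and 4 genes outside the rule by size, named here after their values were seen. KIF3B, a kinesin motor subunit, had 49.3 and 48.3 CPM with HMOX1si1, 152 and 148 with HMOX1si2 and 152 and 132 with siControl (log2 difference 1.62, SE 0.10, edgeR adjusted p = 0.00581). GOLM1, a Golgi membrane protein, had means of 19.5, 62.4 and 59.6 CPM in that order (1.68). GPA33, a surface antigen of intestinal epithelium, had 33.9, 106 and 41.8 CPM (1.64), and SMPD3, the neutral sphingomyelinase 2, had 21, 68 and 25.9 CPM (1.69). KIF3B and GOLM1 were apart from control with HMOX1si1, GPA33 and SMPD3 with HMOX1si2.

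Heme and iron genes other than HMOX1 had 2 calls, SLC48A1 and SLC11A2. Of 14 measured heme synthesis genes none was called (median log2 difference 0.15, against 0.00 over all genes tested). ALAS1, the first and rate-limiting enzyme of the pathway, had 180 and 189.5 CPM with HMOX1si1 and 189 and 179 with HMOX1si2, against 337 and 347 with siControl. The siRNAs overlapped, and both sat below control (log2 difference between them −0.01, SE 0.09). Of 15 measured genes of heme breakdown and transport 2 were called (13.3%, against 3.62% of all genes tested): HMOX1 was lower and SLC48A1, a heme transporter of the endolysosome, was higher with HMOX1si2 (51.3 and 52.7 against 96 and 83.9 CPM; 0.79, edgeR adjusted p = 0.0226); its exons overlap HDAC7 and RAPGEF3. HMOX2, the constitutive heme oxygenase, had a mean of 75.7 CPM with HMOX1si1 and 101 with HMOX1si2 (log2 difference 0.41, edgeR adjusted p = 0.066). Among 22 measured iron genes, the importer SLC11A2 was higher with HMOX1si2 (0.69, edgeR adjusted p = 0.0195) and no gene was lower. The share called, 4.55%, was near the 3.62% of all genes tested. FTH1, the ferritin heavy chain, had 4625 and 4865 CPM with HMOX1si1 and 3424 and 2965 with HMOX1si2, which missed the threshold (log2 difference −0.57, SE 0.12, edgeR adjusted p = 0.0569). The NRF2 target list had 2 of 31 members higher (6.45%, against 2.14%), AKR1B10 and the autophagy receptor gene SQSTM1 (0.53; exons shared with MGAT4B and MRNIP), and a median of −0.02; NQO1, a standard NRF2 target, stood at 0.12 (edgeR adjusted p = 0.58).

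Keratins were among the lists with the most calls. Of 12 measured members, 4 were higher with HMOX1si2 and none lower (33.3% higher, against 2.14% of all genes tested), with a median log2 difference of 0.45. KRT8, the most abundant keratin here, had 3981 and 3772 CPM with HMOX1si1, 5853 and 6295 with HMOX1si2 and 5799 and 6606 with siControl (0.65, SE 0.10, edgeR adjusted p = 0.0264); it shares exon sequence with KRT18. KRT80 had 122 and 127, 231 and 223, and 196 and 196 CPM in the same order (0.86, adjusted p = 0.0114). KRT23 was also higher (0.86), and KRT16 is given above. For all 4 keratins the siControl means lay nearer to HMOX1si2 than to HMOX1si1. KRT18 (0.47, edgeR adjusted p = 0.0703) and KRT19 (0.44, adjusted p = 0.0594) missed the threshold. The 12 ductal epithelium markers summed to 10452 and 11197 CPM with HMOX1si1, 14929 and 14542 with HMOX1si2 and 14855 and 16816 with siControl, a sum made up mostly of KRT8, KRT18 and KRT19, and 2 of them, KRT8 and AGR2, were called. EPCAM, the pan-epithelial adhesion molecule, did not move with this sum: it had 651 and 649.9 CPM with HMOX1si1 and 613 and 669 with HMOX1si2 (log2 difference −0.02, SE 0.09). The part of the marker sum in the results on keratins and secretory genes was not tested. In bulk RNA, fewer cells of a type and less RNA per cell cannot be told apart. CLDN4, another marker, swung between replicates (6.13 and 647 CPM with HMOX1si1, 646 and 147 with HMOX1si2), and no value is read from it.

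Hemidesmosome and laminin genes, which anchor epithelial cells to the basement membrane, went the other way. Of 12 measured members 4 were lower with HMOX1si2 and none higher (33.3% lower, against 1.49% of all genes tested), with a median of −0.19 and 10 of 12 members below 0. COL17A1, given above, was among them. LAMB3, the beta-3 chain of laminin-332, had 1362 and 1362 CPM with HMOX1si1, 869 and 892 with HMOX1si2 and 442 and 448 with siControl (log2 difference −0.63, SE 0.08, edgeR adjusted p = 0.0178). LAMA3, its alpha-3 chain, had 129.9 and 133, 87.3 and 77.8, and 115 and 102 CPM in that order (−0.67, adjusted p = 0.0329). Relative to siControl these chains differed: with HMOX1si2, LAMB3 stayed above the control libraries while LAMA3 was below them. The integrin genes of the same structure were not called: ITGA6 stood at −0.58 (edgeR adjusted p = 0.103) and ITGB4 at 0.12 (adjusted p = 0.559).

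Cell-cell junction genes were mixed. The shares called were 20% of desmosome and adherens junction genes and 11.1% of tight junction genes, against 3.62% of all genes tested. For genes of the epithelial-mesenchymal transition the share was 13.3%. Of 15 measured desmosome and adherens junction genes, 2 desmosomal cadherins were lower with HMOX1si2, DSC2 and DSG2 (mean 691 CPM with HMOX1si1 and 444 with HMOX1si2, siControl 401; log2 difference −0.64, edgeR adjusted p = 0.0384), and 1 was higher, the desmosome component PERP (279.5, 445 and 314 CPM; 0.67). CDH1, which encodes E-cadherin, stood at 0.27 (SE 0.16, adjusted p = 0.392). Among 18 measured tight junction genes the scaffold gene PATJ was higher (0.94) and CLDN23 lower (−0.91). Of 15 measured genes of the epithelial-mesenchymal transition 2 were called, both factors that keep the epithelial state: the repressor OVOL1 (4.33 CPM with HMOX1si1 and 9.49 with HMOX1si2; 1.13) and the splicing regulator ESRP2 (0.97; exons shared with NFATC3) were higher, while the list's median was −0.26.

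The called secretory genes were higher with HMOX1si2. Of 19 measured mucins, trefoil factors and secretory genes 3 were higher and none lower (15.8% higher, against 2.14% of all genes tested; median 0.21). AGR2, an endoplasmic reticulum isomerase needed for mucin folding, had 40.8 and 40.6 CPM with HMOX1si1, 109 and 114 with HMOX1si2 and 122 and 137 with siControl (log2 difference 1.46, SE 0.10, edgeR adjusted p = 0.00671). CREB3L1, a membrane-bound transcription factor of secretory cells, had 73.1 and 87.9, 258 and 206, and 158 and 160.4 CPM (1.53, adjusted p = 0.0112). MUC13, a transmembrane mucin, had 317 and 357, 768 and 632, and 898 and 923 CPM (1.05, adjusted p = 0.0173). AGR2 and MUC13 were lowest with HMOX1si1 and still below the control libraries with HMOX1si2, whereas CREB3L1 was above them with HMOX1si2. VIL1, the brush border protein villin, followed AGR2 with means of 142, 279 and 449.8 CPM (0.97, edgeR adjusted p = 0.00918; exons shared with USP37), the only 1 of 18 measured brush border genes called. Of 23 measured classical subtype genes 1 was called, AGR2, and of 8 measured basal-like genes KRT16 was higher and AREG lower. The shares called were 5.56% of brush border, 4.35% of classical and 25% of basal-like genes, against 3.62% of all genes tested.

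Proteases and their inhibitors had the most called members of any list, 7 of 29 measured (24.1%, against 3.62% of all genes tested), 5 higher and 2 lower with HMOX1si2; the count ran from 1 to 11 over the alternative fits. The higher ones were TMPRSS2, the kallikreins KLK6 (mean 20.7 CPM with HMOX1si1 and 48.9 with HMOX1si2; 1.24) and KLK11 (55.7 and 108; 0.96), the inhibitor SLPI (113 and 214; 0.93) and ST14, the membrane protease matriptase (874 and 1213; 0.47). Among the lower was MMP1, the interstitial collagenase (17.1 and 7.81; −1.13). TMPRSS2, ST14, KLK6 and KLK11 are serine proteases of the cell surface or of secretions, and SLPI inhibits such enzymes. The siControl means were 113 CPM for KLK11 and 228 for SLPI, near HMOX1si2 in both cases.

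Genes of growth factor and matrix signalling were called in both directions. The shares called were 15.4% of EGF receptor ligands and receptors and 11.1% of WNT genes, against 3.62% of all genes tested. The TGF-beta list and the YAP list each had 14.3%. Immediate early genes (4.17%) and ERK feedback genes (4.76%) were near the share over all genes. Of 13 measured EGF receptor ligands and receptors, the ligands EREG and AREG were lower with HMOX1si2 and none was higher. AREG had 24.6 and 26.5 CPM with HMOX1si1, 13.1 and 11.3 with HMOX1si2 and 18.5 and 19.5 with siControl (log2 difference −1.07, SE 0.13, edgeR adjusted p = 0.0173). In the lists of TGF-beta and matricellular genes and of YAP targets (21 measured members each, 2 lower and 1 higher in both, medians 0.07 and 0.03), CCN1, a matricellular protein, had 123 CPM with HMOX1si1 and 54.7 with HMOX1si2 (−1.17), and the YAP target NT5E, an ectonucleotidase gene (−0.67), was lower too. TGFB2, the ligand TGF-beta 2, was higher (46.5 and 92.5 CPM; 0.99). JUN, a subunit of AP-1, was the only 1 of 24 immediate early genes called (69 and 48.9 CPM, siControl 27.4; −0.50, edgeR adjusted p = 0.0465), with a list median of −0.42 and 20 of 24 members below 0. Among 21 ERK feedback genes and outputs the cyclin gene CCND1 was the only one called (441 and 311 CPM; −0.51; exons shared with LTO1). The WNT ligands WNT11 and WNT10A (0.91) were higher and the only genes called among 18 measured WNT genes. The FOXO and insulin list had 3 of 27 members called (11.1%, against 3.62%): the alpha-arrestins ARRDC3 (125 and 69 CPM; −0.86) and ARRDC4 (6.1 and 3.22; −0.92) were lower and the cyclin gene CCNG2 (13.2 and 26.5; log2 difference 1) was higher. With siControl, ARRDC3 was at 50.5 CPM and ARRDC4 at 1.11, so both siRNAs had the higher mean and HMOX1si1 the highest.

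Inflammatory and interferon genes were called in a few cases only. The shares called were 13.6% of chemokines and interleukins and 5.26% of MHC class I genes, against 3.62% of all genes tested. Of 40 interferon-stimulated genes 3 were lower with HMOX1si2 (7.5%, against 1.49%), none higher, and the median was −0.15. IFIT2, an RNA-binding antiviral protein, had 146 and 146 CPM with HMOX1si1, 83.9 and 78.9 with HMOX1si2 and 61.2 and 54.8 with siControl (−0.85, SE 0.10, edgeR adjusted p = 0.0158; exons shared with LIPA). OAS1, which makes the activator of RNase L, had means of 232, 144 and 174 CPM (−0.69), and its relative OASL had 238, 148 and 134 CPM (−0.69). The highest level of each was with HMOX1si1. Among 22 measured chemokines and interleukins, IL1A (3.86 and 1.49 CPM; −1.37) and the growth factor CSF1 (86.5 and 53.5; −0.69) were lower and the interleukin-1 receptor antagonist IL1RN (1.49 and 2.91; 0.97) was higher. No NF-kappaB gene of 24 was called, and 1 of 19 measured MHC class I genes was, the peptide trimming enzyme ERAP1 (0.68; exons shared with CAST).

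The cell cycle lists, which bear on the growth question of the study, held few called genes. Of 41 DNA replication and G1/S genes 1 was lower, CCND1, and of 39 mitosis genes 1 was higher, HJURP, the chaperone of centromeric histone (36.1 CPM with HMOX1si1, 66.7 with HMOX1si2 and 78.5 with siControl; 0.89, edgeR adjusted p = 0.0278; exons shared with MROH2A). These shares, 2.44% and 2.56%, are near the 3.62% called over all genes. Over all measured members, called or not, 32 of the 41 and 34 of the 39 had a log2 difference below 0, with medians of −0.18 and −0.19, where 6822 of the 13769 genes tested were below 0. Members of a list are not separate replicates, and the part of differences between replicate libraries in these medians was not tested. MKI67, the proliferation marker Ki-67, had 347 and 448 CPM with HMOX1si1 and 455 and 297 with HMOX1si2, which overlap. Among 31 p53 targets and cell-cycle brakes, TNFRSF10B and the CDK inhibitor gene CDKN2B (126 and 77 CPM; −0.71, edgeR adjusted p = 0.0178) were lower and none was higher. TNFRSF10A, the other TRAIL death receptor, stood at −0.08 (adjusted p = 0.726). Of 29 measured BCL2 family and caspase genes, the sensitizer gene BMF was higher (0.68) and PMAIP1, which encodes NOXA, was lower (−0.77). The shares called were 6.45% of the p53 list and 6.9% of the BCL2 list, against 3.62% of all genes.

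Some metabolic and stress lists had called shares near that over all genes: 3.03% of ATF4 targets, 3.23% of proteasome genes and 3.85% of cholesterol genes. Shares were 4.88% for lysosome and autophagy, 5.26% for ferroptosis defence and 5.88% for small RNA machinery. They were 7.41% for glycolysis, 11.5% for the unfolded protein response and 14.3% for the clock. Hypoxia genes had 4 of 21 members called (19%, against 3.62% of all genes tested), 1 higher and 3 lower. CA9 was higher, while EGLN3, a prolyl hydroxylase that marks HIF for decay (6.67 and 2.93 CPM; −1.18), ANGPTL4 (16.1 and 10.1; −0.67) and NDRG1 (100.4 and 65.7; −0.61) were lower. The glycolysis list had PFKFB3, which makes an activator of phosphofructokinase (45.8 CPM with HMOX1si1, 85.3 with HMOX1si2 and 36 with siControl; 0.90), and the transporter gene SLC2A6 (30.3, 58.3 and 109 CPM; 0.94) higher among 27 measured members, with a median of −0.02. In the unfolded protein response, EIF2AK3, the sensor kinase PERK (23.9 and 12.7 CPM; −0.91), and the chaperone DNAJB9 (28 and 16.2; −0.79; exons shared with PNPLA8 and THAP5) were lower, while SEL1L, of the complex that clears misfolded proteins, was higher (56.2 and 107; 0.93), out of 26. NUPR1, a stress-induced nuclear protein, was the only 1 of 33 measured ATF4 targets called, with 7.18 and 8.4 CPM with HMOX1si1, 19.2 and 16.6 with HMOX1si2 and 3.62 and 4.17 with siControl (1.2, SE 0.16, edgeR adjusted p = 0.019). Of 21 measured clock genes, TEF was higher (21.6 and 60.8 CPM; 1.5) and PER1 (91.8 and 52.8; −0.80) and NOCT (21 and 12; −0.80) were lower. The sterol enzyme gene CYP51A1 (−0.81), the cathepsin gene CTSL (−0.76), the lipid peroxidation modulator PEBP1 (0.74; exons shared with VSIG10), the proteasome gene PSMB2 (0.52) and the silencing scaffold gene TNRC6B (−0.85) were each the only call, or the only one in that direction, of their lists. All 9 measured metallothioneins, which bind zinc and copper, had log2 differences below 0 (median −0.57). None passed the threshold in edgeR, and 5 did in DESeq2, which called 10.2% of all genes tested. MT2A, the most abundant, had 189 and 214 CPM with HMOX1si1 and 142 and 122 with HMOX1si2 (−0.61, edgeR adjusted p = 0.0629).

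The lists of cytosolic ribosomal proteins, aminoacyl-tRNA synthetases and respiratory chain genes had 1 call in all and did not share a direction. That call was 1.27% of the ribosomal protein genes, against 3.62% of all genes tested. Of 79 cytosolic ribosomal protein genes 77 had a log2 difference above 0 (median 0.18), and 1 was called, RPS16, with 159 and 127 CPM with HMOX1si1, 297 and 422 with HMOX1si2 and 438 and 499 with siControl (1.33, edgeR adjusted p = 0.0279). Nuclear subunits of complex I were above 0 in 30 of 37 and those of complexes II to V in 35 of 39 (medians 0.14 and 0.20), with no call in either. The 13 transcripts of the mitochondrial genome were below 0 in 10 (median −0.07) and the 20 aminoacyl-tRNA synthetase genes in 13 (median −0.04), also with no call. The share of all counts from ribosomal protein genes was 4.51% and 3.83% with HMOX1si1 and 4.21% and 5.4% with HMOX1si2, and that from the mitochondrial genome 5.95% and 8.13% against 8.38% and 5.1%. Both shares overlapped between the siRNAs, and within each siRNA the library with more ribosomal protein counts had less mitochondrial RNA; the part of these library differences in the list medians was not tested.

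**Figure D4:**
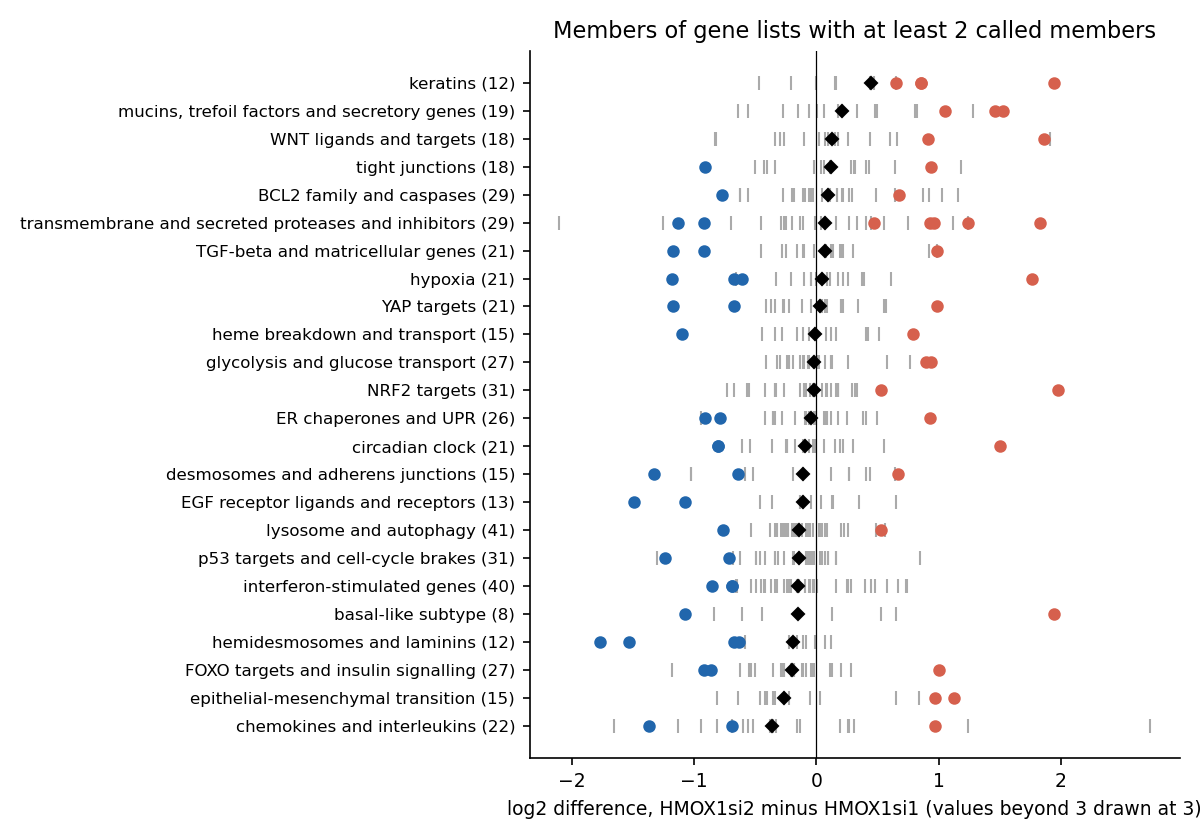
Log2 difference, HMOX1si2 minus HMOX1si1, of each measured member of the gene lists with at least 2 called members (number measured in brackets). Red and blue points are members called higher and lower with HMOX1si2, grey ticks are members not called and black diamonds are list medians, which run from 0.45 for keratins to −0.36 for chemokines and interleukins.

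Without the siRNA sequences at hand, the 3′ UTRs were searched for every word of 7 bases that went with a difference between the siRNAs. This covered 16298 words in the 3′ UTRs of 10800 genes, with adjustment for UTR length and GC content. It describes the ranking and has no p-value. The SE given for a word is over genes taken as separate, so it does not measure the spread between libraries. The words were also picked as the extremes of this ranking. The sites below are shown because they hold the first-ranked word of each direction in HMOX1 and in genes named above. They are written 5′ to 3′ on the transcript strand, with the word in capitals, in GRCh38 coordinates.
HMOX1, 3′ UTR in exon 5, chr22:35393869-35393898 (plus strand): ctggaagacacCCTAATGtggcagctgtct
TMEM245, chr9:109016037-109016066 (minus strand): gagaagacatcCCTAATGgaaatactgaat
EIF2AK3, chr2:88556974-88557003 (minus strand): gactttttaagCCTAATGaaatcttaagtg
HMOX1, coding sequence in exon 3, chr22:35387099-35387128 (plus strand): aactccctggaGATGACTcccgcagtcagg
PRR15L, chr17:47952010-47952039 (minus strand): gcatttattgaGATGACTgtttctcatgcc
TMPRSS2, chr21:41465770-41465799 (minus strand): ctcagctgctgGATGACTtgagatgaaaaa
C2orf88, chr2:190202659-190202688 (plus strand): catataaaacaGATGACTgaaagactgact
MAP2K3, chr17:21300552-21300581 (plus strand): aggtggaggctGATGACTtggtgaccatct
The last of these, in MAP2K3, is shown because the gene was lower with HMOX1si2, against the direction of its word.

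The first-ranked word on the lower side was CCTAATG, held by the 3′ UTRs of 978 genes (9.06% of those searched). These genes were lower with HMOX1si2 by 0.12 on the log2 scale (adjusted difference −0.12, SE 0.01), and their median was −0.12 against 0.01 in the other genes. Of the genes with the word 5.21% (51 genes) were called lower, against 1.44% of those without it and 1.78% of all genes searched. Relative to siControl, the median of the genes with the word was 0.08 for HMOX1si1 and −0.06 for HMOX1si2. The next words on this side were CTAATGA, which overlaps CCTAATG by 6 bases (adjusted difference −0.08, 11.3% of genes), and CCATCCA (−0.07, 14.3% of genes). For genes with CTAATGA the medians against siControl were 0.08 with HMOX1si1 and −0.02 with HMOX1si2. For genes with CCATCCA they were 0.06 and 0.01. CCTAATG was in the 3′ UTR of 4 of the 14 lower genes named by size that could be searched (among them DSC2, TMEM245 and TNFRSF10B) and of none of the 15 higher ones. It was also in those of EIF2AK3, DNAJB9, CDKN2B, ARRDC4, TNRC6B, CLDN23 and, at 2 sites, OASL, all called lower, and in those of AGR2, KRT8, PATJ and SQSTM1, all called higher. The word and the called genes were chosen from the same differences, so their overlap is not independent support.

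On the higher side the first-ranked word was GATGACT, in 1287 genes (11.9%), with an adjusted difference of 0.07 (SE 0.01). Here the medians hardly differed (0.01 with the word, 0.00 without) and the shift lay in the upper tail: 4.43% of genes with the word (57 genes) were called higher, against 2.05% without it and 2.33% of all searched. Relative to siControl, the median of the genes with the word was −0.02 for HMOX1si1 and 0.00 for HMOX1si2. ATGACTA, which overlaps GATGACT by 6 bases, had an adjusted difference of 0.06 and GGGCTCT of 0.05. GATGACT was in the 3′ UTR of 4 of the 15 higher genes named by size (PRR15L, C2orf88, TMPRSS2 and LDLRAD1) and of 2 of the 14 lower ones (MAP2K3 and DSC2). Here too the word and the genes were chosen from the same differences. Both first-ranked words occur in the 1822-base HMOX1 transcript HMOX1-201, CCTAATG at position 1488 in the 3′ UTR and GATGACT at position 909 in the coding sequence, counted from the transcript's first base. A word match is a description of the sequence and not a binding site, and whether either word is part of an siRNA was not tested.

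**Figure D5:**
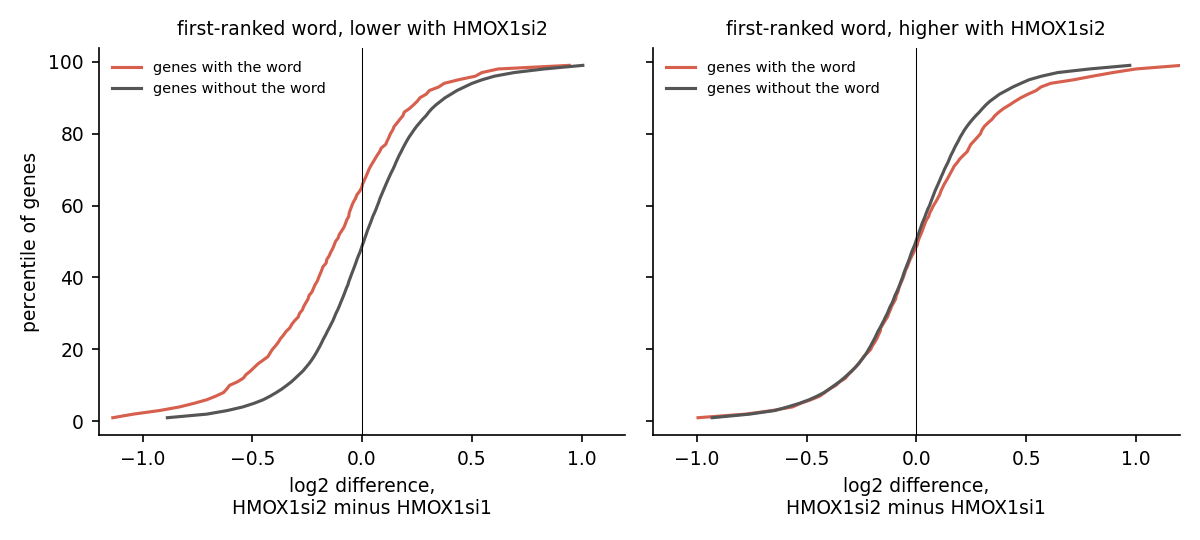
Percentiles of the log2 difference, HMOX1si2 minus HMOX1si1, for genes whose 3′ UTR holds the first-ranked word (red) and for the other genes searched (grey), on the lower side (left) and the higher side (right). On the left the red curve is shifted over most of its range (medians −0.12 and 0.01), and on the right the curves part in the upper tail (medians 0.01 and 0.00).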

How the data were processed

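AsPC-1 mRNA libraries, 2 for each of the 3 groups, were sequenced. The deposited table holds 1 whole number per gene and library, taken here as estimated (expected) counts; this unit was inferred from the values, low values are mostly even, and whether both mates of a fragment were counted is not settled. Rounding the deposited estimated counts changed nothing. No aligner or counter is given in the sources used here. GRCm38 and mm10, both mouse builds, appear in the submitters' processing notes although every gene identifier is human, which leaves the counting build unknown; GENCODE 29 (GRCh38) served for coordinates, exon overlap and 3′ UTRs. It held 20224 of the 20263 genes, and 20148 matched a symbol.

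edgeR 4.0.16 was used with limma 3.58.1 in R 4.3.3: filterByExpr, TMM, a fit of 3 group means to the 6 libraries, and glmQLFit with glmQLFTest for HMOX1si2 minus HMOX1si1, Benjamini-Hochberg adjustment over 13769 genes, threshold 0.05. Each SE is the log2 difference over the square root of F, and the 95% interval of HMOX1 rests on it. DESeq2 1.42.0 was an alternative. The script was tested on simulated data with a smaller spread between replicates than was estimated here. That test checks the code and cannot show how reliable the calls are in these libraries. Log2 CPM uses a prior count of 2. Of the tested genes 32% share exons with another gene.

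Named genes are HMOX1, the 15 genes per direction with the largest difference among called genes whose mean log2 CPM is 2 or more, libraries that do not overlap and replicates within 2-fold, and in each gene list up to 6 called members or otherwise up to 2 with the smallest p. Other list members given with values, such as ALAS1, KRT18, EPCAM, ITGB4, MKI67 and TNFRSF10A, were chosen after their values were seen. Words of 7 bases present in at least 50 genes were ranked by a regression on the longest annotated 3′ UTR. The comparison, the gene lists and the words were chosen with earlier results of these data known, so none of them is independent support. Some genes that the rule names are left out of the text and figures.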

Additional observations from a re-analysis of the deposited data

How the results depend on the processing

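The count of 499 called genes stayed within 1.5 times under RLE scaling (488), library totals (494), no filter (529), a stricter filter of 50 counts (531) and without genes that share exons (388). It was 1411 in DESeq2 (726 higher, 685 lower, 51.5% higher against 58.9%), 258 with a test against a 1.2-fold change (glmTreat), 154 when only the 4 HMOX1 siRNA libraries were fitted and between 26 and 186 when 1 library was left out. With the replicate number as a block it was 87 (58 higher, 29 lower). The deviations of same-numbered libraries had a correlation of −0.35 between the siRNAs and of −0.07 and 0.06 with siControl, and the labels tie the numbers to no batch, so they were not used as pairs; whether libraries share a batch is not known. A block with the numbers crossed, added after seeing the data, gave 594. HMOX1 kept its direction throughout and lost the call with the 4 libraries alone (−1.09, edgeR adjusted p = 0.0934), with the replicate block (−1.10, adjusted p = 0.077) and in every fit without 1 library (−1.2 to −0.99). None of the 63 called list members outside the 30 genes named by size kept its call in every alternative, and none reversed: 48 lost it with the 4 libraries alone, 56 with the replicate block, and 62 and 63 without HMOX1si1 replicates 1 and 2; DESeq2 called all 63. Over the alternatives the called members ran from 0 to 7 for keratins, 2 to 5 for hemidesmosomes and laminins, 0 to 5 for secretory genes, 1 to 11 for proteases and inhibitors, 0 to 9 for interferon-stimulated genes and 0 to 6 for mitosis genes; each highest count is from DESeq2, which called 10.2% of all genes tested. MT-CYB and MT-CO3, not called (−0.15 and −0.12), ranged from −0.64 to 0.21 and from −0.53 to 0.20 when 1 library was left out, and turned to 0.15 and 0.13 without HMOX1si1 replicate 2. The differences of the first-ranked words were −0.13 and 0.07 without genes that share exons, and both words kept rank 1. In that search CTAATGA ranked 2 and CCATCCA 4 on the lower side, and ATGACTA fell to 27 and GGGCTCT to 19 on the higher side. The cause of these dependences was not tested. With 2 libraries a side, edgeR called no difference under 0.44 on the log2 scale.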
